A study of Mus musculus with 30 samples.

Results

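Whole blood of mice that had been immobilized, left undisturbed for a week and then fear conditioned (the Immo+FC group) was compared with blood of home cage mice (the HC group). The comparison rests on 9 of the 30 RNA sequencing libraries of the study, 5 from Immo+FC blood and 4 from HC blood. All mice were wild-type C57BL/6J males of 2 to 3 months. Immo+FC mice were held immobile for 2 h, and were killed 2 h after an auditory fear conditioning session in which tones were paired with foot shocks. HC mice were handled for about 1 min, were never conditioned and were killed at an equivalent time of day. Another group of 5 blood libraries, handled and then conditioned without immobilization (FC), is given beside the members. Immobilization alone was not among the groups, so in the comparison of Immo+FC with HC the immobilization and the conditioning cannot be told apart. Trunk blood of 2 mice was pooled in each tube, so a library is a pool and the p-values measure the spread between pools. Globin transcripts were depleted before the poly-A library preparation.

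The genes tested were those with a mean of at least 0.5 FPKM (fragments per kilobase of transcript, scaled to the number of mapped fragments) over the 9 libraries, which held for 11731 of the 23303 gene entries. Of these, 293 had a mean under the minimum in Immo+FC and 123 in HC, so they were tested only through the group where they were high. Just inside that minimum was Kiss1r with a mean of 0.50033 FPKM, and just outside was Islr with 0.49976 FPKM. Differences were tested with limma on log2(FPKM + 0.1), and adjusted p-values are Benjamini-Hochberg values over the 11731 genes with a threshold of 0.05. Fold changes are Immo+FC over HC on that log2 scale, which understates the change of genes of low FPKM. Genes passed the test where the adjusted p was under 0.05, and genes are called nominally higher or lower where the unadjusted p was.

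Blood carries neutrophils, monocytes, lymphocytes, platelets and red cells in proportions that shift within hours of a stressor. Catecholamines and glucocorticoids release neutrophils from the vessel wall and the marrow, and move lymphocytes between blood and tissue. Neutrophils that have left the marrow no longer make the proteases packed into their first granules as precursors, but keep transcripts for gelatinase-type granule proteins and for receptors of chemokines, formyl peptides and interleukin 1. In the study's own blood counts, neutrophils had a larger share and lymphocytes a smaller one in Immo+FC than in HC. Between HC and FC it found no difference in composition. These counts were not used here. In bulk blood, fewer cells of a type and less RNA per cell cannot be told apart from RNA values.

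The libraries carried the defining transcripts of blood. Summed over the B cell list, which includes Cd79a and Cd79b, they held 8533 to 15800.0 FPKM in HC and 9217 to 13939 FPKM in Immo+FC. The T cell list summed to 1191 to 1598 and 1139.7 to 1927 FPKM, and the platelet factor Pf4 was listed at 2362 to 5831 and 2559.5 to 3443 FPKM. The globin Hbb-bt was present at 13263 to 128031 FPKM in HC, whereas Hba-a1, Hba-a2, Hbb-b1, Hbb-bs and Alas2 were listed at 0 in every blood library. A 0 in the table can therefore be a failed estimate.

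HC library 3 stood apart from the other 13 blood libraries. Its median correlation with them was 0.9307, against 0.9367 for HC library 4 and 0.9516 to 0.9677 for the others. It held the highest sum of neutrophil granule genes in the HC group, 42127 FPKM against 9697, 9932 and 10884 FPKM, and the highest sum of erythroid genes. Counts and genes that moved with it are therefore also given without HC library 3. It was singled out partly by its neutrophil sum, so higher neutrophil gene counts without it follow in part from that choice. Those counts are a description and not independent support. Immo+FC libraries 1 and 2 held the highest neutrophil sums of their group, and counts are also given without them. Sequencing depth differed between the groups, from 21059464 to 25892322 total sequences in Immo+FC and from 9081977 to 20101794 in HC, with the 5 Immo+FC libraries above all 4 HC libraries (exact permutation test, two-sided, p = 0.00794, adjusted over 4 mapping measures 0.0317). This call was lost without HC library 4, the shallowest (exact permutation p = 0.0714). The part of depth in the gene results was not tested.

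Between Immo+FC and HC blood 8 genes passed the test, 3 higher and 5 lower. They were 0.0682% of the genes tested, 0.0256% higher and 0.0426% lower. Without adjustment, 831 genes (7.08%) were nominally higher and 1001 (8.53%) nominally lower, and the median log2 fold change over all genes was -0.02. With HC library 3 left out, 305 of 11672 genes passed (2.61%), 207 higher (1.77%) and 98 lower (0.84%), while 10.5% of genes were nominally higher and 9.99% nominally lower, so that the share of higher genes among those that passed went from 37.5% to 67.9%. Weighting libraries by their own spread instead of leaving one out gave 369 genes, 241 of them higher. Without Immo+FC libraries 1 and 2 the count was 2, both lower: Filip1l and Cmss1, which are listed at 0 in every Immo+FC and FC library. The other 6 of the 8 genes missed the threshold, and 3.98% of genes were nominally higher and 5.71% nominally lower. Without these 2 libraries and HC library 3 the count was 52, with 46 higher (0.393%) and 6 lower (0.0512%). Leaving out each library in turn gave 5 genes without HC library 1, 18 without HC library 2 and 3 without HC library 4. The counts were 3, 4, 12, 19 and 17 genes without Immo+FC libraries 1 to 5, as the plot of called genes by library left out shows.

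**Figure D1:**
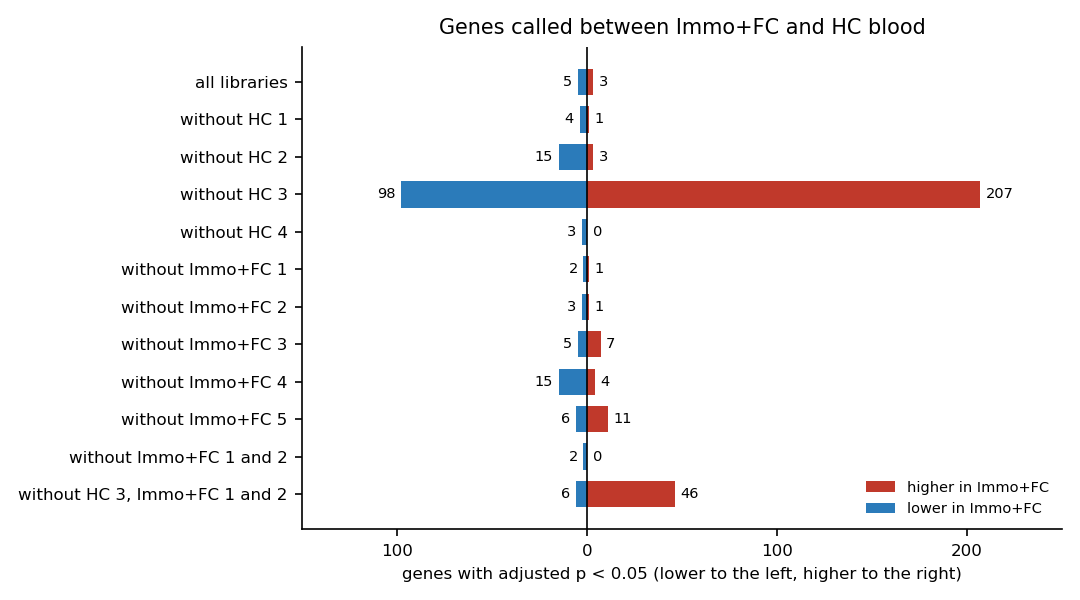
Number of genes past an adjusted p of 0.05 (limma) between Immo+FC and HC blood. Fits hold all 9 libraries, leave out each in turn, or omit Immo+FC libraries 1 and 2, with or without HC library 3. Bars start at 0 and separate genes called higher from genes called lower. The count without HC library 3 (207 higher, 98 lower) stands above the 3 to 19 genes of every other single omission. Omitting Immo+FC libraries 1 and 2, chosen after seeing the data, gave 2 genes, and 52 without HC library 3 as well.

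Against the FC group, no gene passed the test in Immo+FC blood, under any setting that gave this comparison (limma, 684 genes, 5.83%, nominally higher and 434, 3.7%, nominally lower). Between FC and HC blood 497 genes (4.24%) were nominally higher and 753 (6.42%) nominally lower, and 4 genes passed (0.0341%), all lower: Filip1l, Cmss1, Rasa4 and Tubb4a, a brain-type tubulin. The last was named after its values were seen. These comparisons share libraries with Immo+FC against HC, so their values are set side by side without a measure of their likeness.

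The 3 genes that rose were Crispld2, Ceacam10 and Pag1. Crispld2, a secreted cysteine-rich protein that binds lipopolysaccharide (chromosome 8, 119992438 to 120052793, plus strand, GRCm38), was listed at 0.292, 0.253, 0.772 and 0.102 FPKM in HC libraries 1 to 4 and 12.3, 12.9, 3.93, 2.69 and 2.53 FPKM in Immo+FC libraries 1 to 5. Its HC mean was under the minimum of 0.5 FPKM, so it was tested only through Immo+FC. The groups did not overlap, and the FC libraries, at 1.13 to 2.79 FPKM, lay above every HC pool and reached into the lower end of the Immo+FC range. The difference was a log2 fold change of 3.78 ± 0.52 (SE; adjusted p = 0.0138) and 4.16 ± 0.52 (adjusted p = 0.00498) without HC library 3. It passed with 8 of the 9 libraries left out in turn and missed the threshold without HC library 4 (adjusted p = 0.0651).

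Ceacam10, a secreted member of the carcinoembryonic antigen family (chromosome 7, 24777206 to 24784657, plus strand), stood at 0.894, 0.475, 3.63 and 0.482 FPKM in HC libraries 1 to 4 and 8.96, 10.4, 5.04, 5.502 and 5.28 FPKM in Immo+FC libraries 1 to 5. The lowest Immo+FC pool was above the highest HC pool, HC library 3, and the FC pools spanned 2.55 to 5.02 FPKM. Between the groups Ceacam10 differed by a log2 fold change of 2.69 ± 0.46 (SE; adjusted p = 0.0478), and without HC library 3 it was 3.30 ± 0.29 (adjusted p = 1.21e-04). It missed the threshold without HC library 1, 2 or 4 (adjusted p = 0.105, 0.059 and 0.142, in turn) and without Immo+FC library 1, 2 or 3 (adjusted p = 0.117, 0.119 and 0.0532, in turn).

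Pag1, a membrane adaptor that brings the inhibitory kinase Csk to lipid rafts of lymphocytes and other leukocytes (chromosome 3, 9687479 to 9833679, minus strand), rose by a smaller step. It was at 6.05, 6.48, 5.95 and 5.46 FPKM in HC libraries 1 to 4 and 10.7, 10.2, 8.92, 8.91 and 8.87 FPKM in Immo+FC libraries 1 to 5, with FC pools at 6.72 to 9.07 FPKM. Immo+FC and HC differed by a log2 fold change of 0.66 ± 0.11 (SE; adjusted p = 0.0454) and 0.66 ± 0.12 (adjusted p = 0.0187) without HC library 3. It missed the threshold without HC library 1 or 4 (adjusted p = 0.105 and 0.122, in turn) and without Immo+FC library 1 or 2 (adjusted p = 0.117 and 0.119, in turn).

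**Figure D2:**
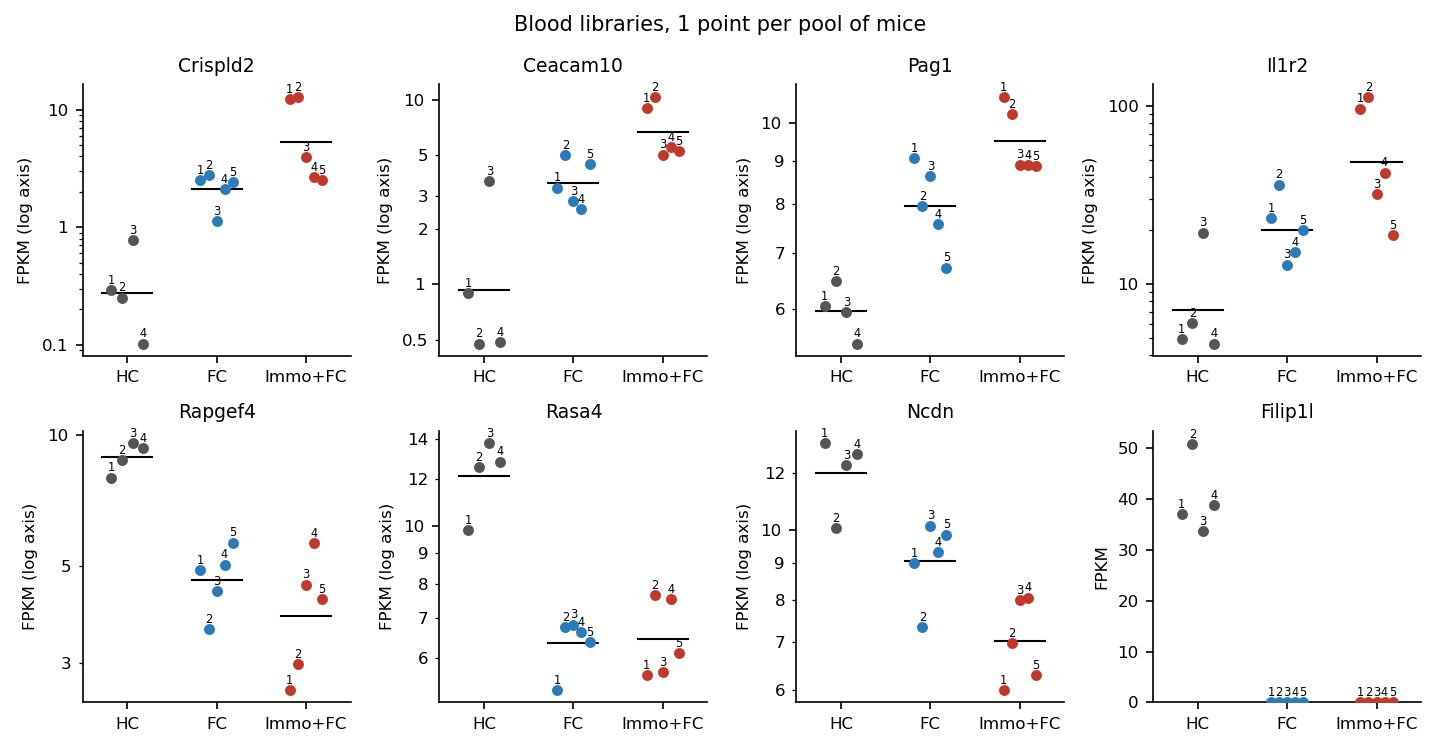
FPKM of 8 genes in each HC, FC and Immo+FC blood library (log axes, linear for Filip1l); points are numbered by library and black bars are geometric means, with none for Filip1l. Crispld2, Ceacam10 and Pag1 are higher and Rapgef4, Rasa4 and Ncdn lower in every Immo+FC pool than in any HC pool, while HC library 3 lies within the Immo+FC range of Il1r2.

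The 7 genes with the next smallest p-values among those higher without overlap missed the threshold, each at an adjusted p of 0.0548. Oscp1 was at 0.205 to 0.587 FPKM in HC and 1.05 to 3.68 in Immo+FC (log2 fold change 2.26). Rab44, a large Rab GTPase of granule-bearing leukocytes, was at 4.32, 5.72, 6.73 and 5.905 FPKM in HC and 31.9, 30.5, 11.9, 13.99 and 11.1 FPKM in Immo+FC, and Niacr1, the niacin and hydroxybutyrate receptor of neutrophils and fat, at 4.798, 5.16, 7.01 and 3.72 and 27.3, 29.8, 9.48, 16.8 and 9.69 FPKM. In both genes Immo+FC libraries 1 and 2 were the highest pools. Sdf2l1, a luminal protein of the endoplasmic reticulum, the fatty acid elongation enzyme Ptplb, the receptor Gpr146 and Tada3, a subunit of histone acetyltransferase complexes, differed by 0.99, 0.73, 0.82 and 0.53. All 7 passed without HC library 3, with adjusted p-values from 0.0129 to 0.0332. All but Tada3 also passed without Immo+FC library 5 (adjusted p 0.0106 to 0.041), Oscp1, Sdf2l1, Rab44 and Niacr1 without Immo+FC library 3 (0.0367 to 0.0489), and Tada3 without HC library 2 (0.0365).

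Upstream sequences of 5 secreted genes with higher values in Immo+FC are shown to set them beside a C/EBP-type motif, since C/EBP factors are known to act on granule genes of maturing neutrophils. Each is the 250 bases before the RefSeq start site in GRCm38.p6, read 5′ to 3′ on the gene's strand, with matches to TTGCNNAA on either strand in capitals. Ceacam10 and Crispld2 are followed by 3 neutrophil granule genes that are described further on.
Ceacam10, chr7:24776917-24777166, plus strand: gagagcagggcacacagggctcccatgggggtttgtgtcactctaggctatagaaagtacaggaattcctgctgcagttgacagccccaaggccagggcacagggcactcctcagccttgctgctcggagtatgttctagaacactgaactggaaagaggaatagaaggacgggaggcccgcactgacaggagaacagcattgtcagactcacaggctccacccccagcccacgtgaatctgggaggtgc
Crispld2, chr8:119992188-119992437, plus strand: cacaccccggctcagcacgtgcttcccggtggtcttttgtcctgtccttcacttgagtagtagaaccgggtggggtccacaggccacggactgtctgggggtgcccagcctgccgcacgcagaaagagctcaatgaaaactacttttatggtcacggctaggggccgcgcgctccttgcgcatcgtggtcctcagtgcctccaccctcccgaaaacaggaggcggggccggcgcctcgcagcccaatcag
Mmp8, chr9:7558179-7558428, plus strand: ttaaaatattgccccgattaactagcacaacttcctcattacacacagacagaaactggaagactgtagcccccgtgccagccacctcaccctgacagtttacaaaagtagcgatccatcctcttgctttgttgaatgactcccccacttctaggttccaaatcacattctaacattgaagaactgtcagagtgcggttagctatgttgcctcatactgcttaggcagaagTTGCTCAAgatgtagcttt
Slpi, chr2:164356508-164356757, minus strand: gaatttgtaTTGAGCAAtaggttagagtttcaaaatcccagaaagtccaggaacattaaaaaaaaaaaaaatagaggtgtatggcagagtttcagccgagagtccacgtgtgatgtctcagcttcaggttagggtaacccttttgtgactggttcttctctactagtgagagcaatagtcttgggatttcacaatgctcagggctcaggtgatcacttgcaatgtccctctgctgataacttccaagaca
Lcn2, chr2:32387740-32387989, minus strand: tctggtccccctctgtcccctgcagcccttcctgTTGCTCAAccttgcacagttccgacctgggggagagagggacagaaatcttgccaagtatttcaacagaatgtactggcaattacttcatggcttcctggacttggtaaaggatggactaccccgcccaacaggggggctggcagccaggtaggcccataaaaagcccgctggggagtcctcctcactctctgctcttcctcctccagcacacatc
The motif matched once in Mmp8, Slpi and Lcn2, with the match ending 11, 233 and 208 bases before the start, and these letters were not in the windows of Ceacam10, whose first of 2 listed starts is shown, and Crispld2. Of the tested genes with a listed window, 806 of 8722 (9.24%) held a match, against 9 of 24 (37.5%) on the neutrophil granule list and 4 of 21 (19%) on the neutrophil surface list. A match is a description of the letters and not a site.

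Among the 5 genes that passed lower, Filip1l and Cmss1 are a special case. They overlap on opposite strands of chromosome 16 (Filip1l, 57353093 to 57573126, plus strand; Cmss1, 57302000 to 57606864, minus strand), and the library kit and counting are not stated to keep strand, so their reads cannot be told apart. Filip1l, a filamin-interacting protein, was listed at 37.1, 50.9, 33.7 and 38.9 FPKM in HC libraries 1 to 4 and at 0 in all 5 Immo+FC and all 5 FC libraries (adjusted p = 3.46e-11). Cmss1, a ribosomal small subunit homologue, was listed at 1.12, 2.59, 1.19 and 2.94 FPKM in HC and likewise at 0 in all the others (adjusted p = 0.00314). Both kept an adjusted p under 0.05 with each library left out. No fold is given because a listed 0 may be a failed estimate. In the amygdala libraries of the same groups Cmss1 was listed at a mean of 5.93 FPKM in HC and 5.79 FPKM in Immo+FC.

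The other 3 genes fell with values in every pool. Rasa4, a calcium-responsive GTPase-activating protein of Ras (chromosome 5, 136083916 to 136111860, plus strand), was at 9.83, 12.5, 13.8 and 12.8 FPKM in HC libraries 1 to 4 and 5.61, 7.65, 5.68, 7.54 and 6.12 FPKM in Immo+FC libraries 1 to 5. No Immo+FC pool overlapped with HC, and FC pools at 5.29 to 6.82 FPKM were also below every HC pool. The difference was a log2 fold change of -0.90 ± 0.13 (SE; adjusted p = 0.0214), -0.84 ± 0.14 (adjusted p = 0.017) without HC library 3, and it missed the threshold without HC library 4 (adjusted p = 0.104) and without Immo+FC library 1 (adjusted p = 0.0869).

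Rapgef4, the cAMP-activated exchange factor for Rap1 known as Epac2 (chromosome 2, 71981240 to 72257474, plus strand), was at 7.97, 8.75, 9.55 and 9.32 FPKM in HC libraries 1 to 4 and 2.595, 2.98, 4.53, 5.63 and 4.19 FPKM in Immo+FC libraries 1 to 5. FC pools reached 3.58 to 5.65 FPKM, below every HC pool. Immo+FC and HC differed by a log2 fold change of -1.19 ± 0.20 (SE; adjusted p = 0.0454), or by -1.16 ± 0.22 (adjusted p = 0.0231) without HC library 3. The threshold was missed without HC library 1, 2 or 4 (adjusted p = 0.105, 0.0571 and 0.122, in turn) and without Immo+FC library 1 or 2 (adjusted p = 0.117 and 0.119, in turn).

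Ncdn, neurochondrin, a cytoplasmic protein abundant in neurons (chromosome 4, 126743750 to 126753438, minus strand), was at 13.2, 10.1, 12.3 and 12.7 FPKM in HC libraries 1 to 4 and 5.999, 6.97, 7.99, 8.06 and 6.29 FPKM in Immo+FC libraries 1 to 5. FC pools spanned 7.34 to 10.1 FPKM, and HC library 2 with 10.1 FPKM lay within that span. Immo+FC and HC differed by a log2 fold change of -0.77 ± 0.13 (SE; adjusted p = 0.0454) and -0.75 ± 0.14 (adjusted p = 0.0216) without HC library 3. The threshold was missed without HC library 1 or 4 (adjusted p = 0.105 and 0.122, in turn) and without Immo+FC library 1, 2 or 5 (adjusted p = 0.117, 0.119 and 0.0553, in turn). In the HC amygdala libraries Ncdn had a mean of 391 FPKM, against 12.1 ± 1.38 FPKM (SD, n = 4) in HC blood.

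Further genes were lower without overlap at an adjusted p of 0.0548. Among them were Clstn1, a synaptic calsyntenin, at 2.14 to 6.75 FPKM in HC and 1.13 to 1.44 in Immo+FC, and Fam81a at 0.447 to 2.42 FPKM in HC and between 0 and 0.102 in Immo+FC. Stk11ip, a partner of the kinase LKB1, and the collagen galactosyltransferase Glt25d1 differed by -0.53 and -0.71. Without HC library 3, Clstn1, Stk11ip and Glt25d1 passed (adjusted p 0.0109 to 0.0295). Fam81a reached the minimum of 0.5 FPKM only through its HC pools, and without HC library 3 or HC library 4 it was under it and not tested. Clstn1 also passed without HC library 2 (adjusted p = 0.0283), Stk11ip without Immo+FC library 4 (0.046) and Glt25d1 without Immo+FC library 5 (0.0334).

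Genes for neutrophil receptors and regulators had higher values in Immo+FC throughout, and 1 of them, Ceacam10, passed the test with all libraries. All 28 tested members of the list had a higher mean log2 level in Immo+FC, with a median log2 fold change of 1.06 against -0.02 over all genes. Of the 28, 20 were nominally higher and 0 nominally lower, where the shares over all genes were 7.08% and 8.53%. With HC library 3 left out, 14 of 28 passed the test higher, against 1.77% of all genes, and the median was 1.43. Without Immo+FC libraries 1 and 2, 10 of 27 were nominally higher (median 0.64), against 3.98% of all genes. When HC library 3 was left out too, 20 of 28 were, against 7.05% of all genes, and 6 passed, against 0.393%. Gpr84 was under the minimum and not tested. Of the 28, 1 had a mean under the minimum in HC and was tested only through Immo+FC.

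Il1r2, the decoy receptor that binds interleukin 1 without signalling, was at 4.88, 6.06, 19.5 and 4.63 FPKM in HC libraries 1 to 4 and 96.7, 113, 31.9, 42.2 and 18.8 FPKM in Immo+FC libraries 1 to 5. HC library 3 overlapped with Immo+FC library 5, while the other 3 HC pools were at most 6.06 FPKM. The difference was a log2 fold change of 2.74 ± 0.53 (SE; adjusted p = 0.0548), and 3.22 ± 0.49 (adjusted p = 0.0109) without HC library 3. It also passed when Immo+FC library 5 was left out (adjusted p = 0.0334).

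Cxcr2, the receptor through which neutrophils leave the marrow towards chemokines, was at 22.8, 24.5, 78.6 and 21.7 FPKM in HC libraries 1 to 4 and 168, 171, 70.9, 87.3 and 67.7 FPKM in Immo+FC libraries 1 to 5. The HC pools other than library 3 were all under 67.7 FPKM, the lowest Immo+FC value. The Cxcr2 difference was a log2 fold change of 1.73 ± 0.41 (SE; adjusted p = 0.0761), and 2.17 ± 0.35 (adjusted p = 0.0126) without HC library 3.

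Further receptors had the same arrangement, with HC library 3 reaching into the Immo+FC range. The formyl peptide receptor Fpr1 (5.997 to 28.7 FPKM in HC, 16.3 to 76.9 in Immo+FC), the C-type lectins Clec4d and Clec5a and the G-CSF receptor Csf3r had log2 fold changes of 1.70, 1.64, 1.43 and 1.11 with adjusted p-values of 0.0906 to 0.126. These 4 passed without HC library 3, at adjusted p-values of 0.0279 to 0.037. Against FC, 17 of 28 members were nominally higher in Immo+FC, against 5.83% of all genes, and none passed the test. Between FC and HC 2 of 28 were nominally higher, against 4.24% of all genes.

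**Figure D3:**
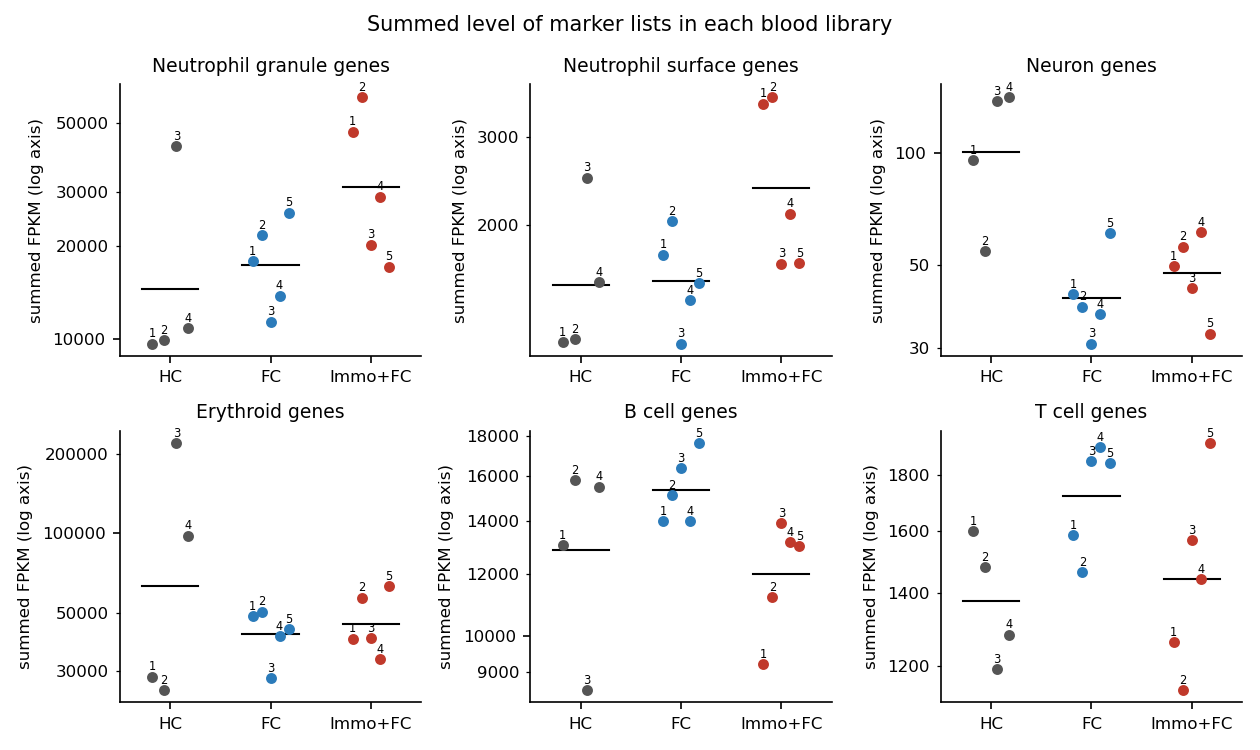
Summed FPKM of 6 marker lists in each HC, FC and Immo+FC blood library (log axes), numbered by library, with geometric means as bars. HC library 3 has the highest neutrophil granule, neutrophil surface and erythroid sums and the lowest B cell sum of the HC group, and the neuron sums of HC libraries 1, 3 and 4 lie above those of all FC and Immo+FC libraries.

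Most neutrophil granule and secreted proteins had higher values in Immo+FC, and none passed with all libraries. Of 27 tested, 13 were nominally higher and 0 nominally lower, against 7.08% and 8.53% of all genes. The median log2 fold change was 0.95. Of the 27, 1 had a mean under the minimum in HC and was tested only through Immo+FC. With HC library 3 left out, 12 passed, all higher, against 1.77% of all genes, with a median of 1.27. The summed list was 9697, 9932, 42127 and 10884 FPKM in HC libraries 1 to 4 and 46858, 60646, 20211, 28919 and 17171 FPKM in Immo+FC libraries 1 to 5, so HC library 3 lay within the Immo+FC range and the other 3 below it. FC sums were 11405 to 25641 FPKM. With a score of this list as a covariate 142 genes passed between Immo+FC and HC, 27 of them higher. Most members of the list were higher in Immo+FC, so its score carries part of the group difference. Without Immo+FC libraries 1 and 2, 6 members were nominally higher (median 0.84), and without HC library 3 as well 14, of which 7 passed. The shares over all genes in these fits were 3.98% and 7.05% nominally higher and, in the second, 0.393% past the test.

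The members described first passed without HC library 3. Lrg1, a secreted leucine-rich glycoprotein, was at 12.3, 11.8, 78.6 and 8.48 FPKM in HC libraries 1 to 4 and 227, 216, 72.4, 83.7 and 43.7 FPKM in Immo+FC libraries 1 to 5, and HC library 3 exceeded Immo+FC libraries 3 and 5. Immo+FC and HC differed by a log2 fold change of 2.57 ± 0.61 (SE; adjusted p = 0.0761) and 3.29 ± 0.47 (adjusted p = 0.0109) without HC library 3. The collagenase Mmp8 was at 9.18, 11.98, 52.9 and 6.298 FPKM in HC libraries 1 to 4 and 122, 156, 36.1, 49.4 and 23.2 FPKM in Immo+FC libraries 1 to 5 (log2 fold change 2.11 ± 0.62, adjusted p = 0.112), and without HC library 3 the difference was 2.75 ± 0.52 (adjusted p = 0.0243). HC library 3 also overlapped with Immo+FC in the gelatinase Mmp9 (log2 fold change 1.497 ± 0.43, adjusted p = 0.111), the protease inhibitor Slpi (1.33), the sheddase Adam8 (1.70) and the siderophore-binding Lcn2 (1.70). Without it these 4 passed at adjusted p-values of 0.0119 to 0.0276.

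Other granule proteins overlapped between the groups and passed neither with nor without HC library 3. Camp, the cathelicidin, was at 92.4, 42.9, 308 and 60.4 FPKM in HC libraries 1 to 4 and 20.01, 226, 191, 192 and 93.3 FPKM in Immo+FC libraries 1 to 5. Both groups spanned more than the distance between them (log2 fold change 0.24 ± 1.09, adjusted p = 0.947), also without HC library 3 (0.81 ± 1.14, adjusted p = 0.736). Ltf, lactoferrin, was at 8.61 to 70.7 FPKM in HC and 6.27 to 39.0 FPKM in Immo+FC (log2 fold change -0.17 ± 0.68, adjusted p = 0.937), and without HC library 3 its sign turned, to 0.42 ± 0.64 (adjusted p = 0.758). The azurophil proteins Mpo, Ctsg and Prtn3, named after their values were seen, were at 0.691 to 6.18, 0.755 to 5.29 and 1.97 to 12.5 FPKM in HC and 0.575 to 6.36, 0.275 to 4.22 and 4.14 to 14.96 FPKM in Immo+FC, with adjusted p-values of 0.486 to 0.888. Differences between members of the list were not tested.

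Signalling genes of the inflammasome and Toll-like receptors were mixed. Of 31 members, 7 were nominally higher and 3 nominally lower, against 7.08% and 8.53% of all genes. Of the 31, 0 passed, and the median was 0.52. A mean under the minimum in HC was found for 1 member, tested only through Immo+FC. With HC library 3 left out, 15 were nominally higher, against 10.5% of all genes. Of these 3 passed: Il1rn, Tlr4 and the lipopolysaccharide-binding protein Lbp. Il1rn, the interleukin 1 receptor antagonist, was at 6.27, 4.604, 9.68 and 2.57 FPKM in HC libraries 1 to 4 and 37.4, 33.4, 13.4, 13.3 and 9.68 FPKM in Immo+FC libraries 1 to 5 (log2 fold change 1.81 ± 0.43, adjusted p = 0.0761). HC library 3 and Immo+FC library 5 were level. Tlr4, the receptor for lipopolysaccharide, was at 1.66 to 3.55 FPKM in HC and 3.59 to 7.75 in Immo+FC, without overlap (log2 fold change 1.07 ± 0.27, adjusted p = 0.0813). The cytokine Il1b was at 86.6 to 233 and 131 to 307 FPKM (adjusted p = 0.238) and the inflammasome sensor Nlrp3 at 4.45 to 12.1 and 6.32 to 15.2 FPKM (adjusted p = 0.358), with HC library 3 the highest HC pool of both.

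Iron handling genes had a median log2 fold change of 0.42 over 12 tested, with 0 past the test. Of these 4 were nominally higher and 1 nominally lower, against 7.08% and 8.53% of all genes. With HC library 3 left out, 4 passed higher, against 1.77% of all genes: haptoglobin (Hp), Lcn2, the iron exporter Slc40a1 and the metalloreductase Steap4. Slc40a1 was at 7.28, 8.13, 30.3 and 8.15 FPKM in HC libraries 1 to 4 and 40.96, 34.9, 20.6, 25.7 and 19.8 FPKM in Immo+FC libraries 1 to 5, a range that only HC library 3 reached among the HC pools. The difference (log2 fold change 1.30 ± 0.38, adjusted p = 0.113) missed the threshold and passed without HC library 3 (1.78 ± 0.27, adjusted p = 0.0109). Steap4 was at 0.801 to 10.5 FPKM in HC and 5.74 to 16.7 in Immo+FC (log2 fold change 2.05 ± 0.61, adjusted p = 0.115). Hp and Lcn2 are also on the neutrophil granule list.

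Nominal differences of monocyte genes went both ways. Of 28, 5 were nominally higher and 8 nominally lower, against 7.08% and 8.53% of all genes. The median was 0.025, with 0 past the test. Without HC library 3 the counts were 6 and 8 (median 0.24), against 10.5% and 9.99% of all genes. In each direction 1 then passed. The lower members included genes of non-classical, patrolling monocytes. Ace, the angiotensin-converting enzyme, was at 17.7, 25.5, 31.4 and 31.01 FPKM in HC libraries 1 to 4 and 4.57, 7.23, 9.05, 13.5 and 16.6 FPKM in Immo+FC libraries 1 to 5. The groups did not overlap, and the difference (log2 fold change -1.47 ± 0.33, adjusted p = 0.0653) missed the threshold, as it did without HC library 3 (-1.37 ± 0.35, adjusted p = 0.0565). The ribonuclease entry Ear12,Ear2, 2 genes merged in the table whose reads cannot be split, was at 95.8 to 116 FPKM in HC and 36.7 to 69.2 in Immo+FC (log2 fold change -0.91 ± 0.17, adjusted p = 0.0548) and passed without HC library 3 (adjusted p = 0.0332). Nr4a1, the factor that non-classical monocytes require, was at 27.1 to 42.1 and 19.99 to 23.9 FPKM (log2 fold change -0.60 ± 0.18, adjusted p = 0.117), and the adhesion receptor Emr4 at 11.8 to 22.7 and 5.67 to 12.8 FPKM (log2 fold change -1.11 ± 0.24, adjusted p = 0.0646, and 0.046 without Immo+FC library 4).

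Neither the classical monocyte markers Ly6c2 and Ccr2 nor Csf1r, a receptor of monocytes in general, separated the groups. Ly6c2 was at 162 to 471 FPKM in HC and 159 to 561 in Immo+FC (adjusted p = 0.742), Ccr2 at 48.7 to 155 and 45.9 to 228 (adjusted p = 0.544), and the growth factor receptor Csf1r at 36.2 to 122 and 30.02 to 62.6 (adjusted p = 0.53). Cd300ld, an activating receptor of myeloid cells, was at 16.3 to 42.7 and 32.3 to 69.3 FPKM and passed higher without HC library 3 (1.36 ± 0.28, adjusted p = 0.0295). In FC against HC, 8 of 28 monocyte genes were nominally lower, against 6.42% of all genes. In Immo+FC against FC 11 were nominally higher, against 5.83% of all genes, with none past the test in either comparison.

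No T cell gene passed the test between Immo+FC and HC. Of 30 T cell genes 4 were nominally higher and 1 nominally lower (median 0.083), against 7.08% and 8.53% of all genes. With HC library 3 left out, 1 was nominally higher and 1 nominally lower (median 0.024), against 10.5% and 9.99% of all genes. Lck, the T cell receptor kinase, was at 106, 94.5, 68.96 and 73.2 FPKM in HC and 107, 95.2, 124, 104 and 137 FPKM in Immo+FC (adjusted p = 0.197), and HC libraries 3 and 4 were the lowest pools. Cd3e and Cd8b1 had log2 fold changes of 0.35 and 0.31, and Ccr7, the lymph node homing receptor of naive cells, -0.46 (adjusted p = 0.31). In FC against HC 11 of the 30 were nominally higher, against 4.24% of all genes.

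B cell genes depended on HC library 3. With all libraries 1 of 30 was nominally higher and 1 nominally lower (median -0.11), against 7.08% and 8.53% of all genes. Without HC library 3, 14 were nominally lower, against 9.99% of all genes, and 1 of them passed the test (median -0.31). That member was H2-Ob, which edits peptide loading of class II molecules, at 222, 246, 133 and 246 FPKM in HC libraries 1 to 4 and 114, 122, 176, 165 and 170.1 FPKM in Immo+FC libraries 1 to 5 (-0.69 ± 0.14, adjusted p = 0.0285 without HC library 3). Cd79b, a chain of the B cell receptor complex, was at 545 to 1051 and 579 to 798 FPKM, with HC library 3 the lowest HC pool. The log2 fold change of Cd79a, the other chain of that complex, was 0.054 with all libraries and -0.19 without HC library 3. The survival receptor Tnfrsf13b was at 7.496 to 19.2 and 15.8 to 31.1 FPKM (adjusted p = 0.228). In Immo+FC against FC 12 of 30 were nominally lower, against 3.7% of all genes. In FC against HC 9 were nominally higher, against 4.24% of all genes.

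Of 29 genes of natural killer and cytotoxic cells, 5 were nominally higher and 1 nominally lower, against 7.08% and 8.53% of all genes. The median was 0.26, with 0 past the test. Prf1, the pore-forming perforin, was at 15.03, 15.3, 14.8 and 10.9 FPKM in HC libraries 1 to 4 and 16.4, 19.8, 22.1, 22.8 and 21.3 FPKM in Immo+FC libraries 1 to 5. No Immo+FC pool overlapped with HC, and the difference (log2 fold change 0.54 ± 0.13, adjusted p = 0.0807) missed the threshold, also without HC library 3 (adjusted p = 0.0545). Il2rb was at 22.6 to 26.4 and 25.7 to 36.95 FPKM, the activating receptor Ncr1 at 13.5 to 15.8 and 12.5 to 23.2 FPKM, and the egress receptor S1pr5 at 7.82 to 14.3 and 5.18 to 10.9 FPKM. In FC against HC 12 of 29 were nominally higher, against 4.24% of all genes.

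Smaller lists of blood cells were also mixed. Among 12 plasma cell genes 3 were nominally higher and 2 nominally lower (median 0.031), against 7.08% and 8.53% of all genes. Igj, the joining chain of secreted antibodies, was at 13.5, 16.7, 16.7 and 10.2 FPKM in HC and 22.3, 32.5, 12.9, 30.9 and 50.5 in Immo+FC (adjusted p = 0.24), and the lower Irf4 at 13.7 to 17.4 and 7.57 to 13.7 FPKM (adjusted p = 0.0919). Creld2, a chaperone of the endoplasmic reticulum, was at 11.9 to 13.9 and 15.9 to 19.8 FPKM without overlap (log2 fold change 0.44 ± 0.092, adjusted p = 0.062) and passed without HC library 3 (adjusted p = 0.0431). Of 13 eosinophil and basophil genes 2 were nominally higher and 1 nominally lower, against 7.08% and 8.53% of all genes. In sign, 9 of the 13 were lower and 4 higher, with a median of -0.25. The histidine decarboxylase Hdc, which makes histamine, was at 10.3, 11.96, 45.7 and 13.8 FPKM in HC libraries 1 to 4 and 132, 124, 31.8, 33.9 and 23.8 FPKM in Immo+FC libraries 1 to 5 and passed without HC library 3 (2.14 ± 0.50, adjusted p = 0.0408), whereas the mast cell and basophil receptor chain Ms4a2 was at 2.06 to 4.12 and 1.44 to 2.27 FPKM (adjusted p = 0.277).

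The platelet genes that differed nominally were all lower, and none passed. Of 26, 0 were nominally higher and 8 nominally lower, against 7.08% and 8.53% of all genes. The median was -0.31 and, without HC library 3, -0.19. Itga2b, the alpha chain of the fibrinogen receptor, was at 412, 399, 596 and 694 FPKM in HC libraries 1 to 4 and 253, 341, 266, 243 and 424 FPKM in Immo+FC libraries 1 to 5 (log2 fold change -0.77 ± 0.19, adjusted p = 0.0808). Immo+FC library 5 overlapped with HC libraries 1 and 2, and HC libraries 3 and 4 were the highest. Its partner Itgb3, the adhesion protein Vwf and coagulation factor F5 had log2 fold changes of -0.59, -0.63 and -0.62, and the chemokine Pf4 -0.24 (adjusted p = 0.72).

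Erythroid transcripts were set apart by 2 HC pools. The list summed to 28646, 25447, 219709 and 98080.0 FPKM in HC libraries 1 to 4 and to 33372 to 63174 FPKM in Immo+FC, after a globin depletion of unstated efficiency per pool. Hbb-bt, whose reads may be shared with other beta globins, was at 13405, 13263, 128031 and 68605 FPKM in HC and 13655 to 31016 FPKM in Immo+FC (adjusted p = 0.573). The mitochondrial iron importer Slc25a37 was at 329, 291, 3994 and 1266 FPKM and 284 to 533 FPKM and the transferrin receptor Tfrc at 10.1, 13.7, 58.96 and 19.6 FPKM and 7.84 to 14.2 FPKM. Of 31 tested members 0 were nominally higher and 1 nominally lower, against 7.08% and 8.53% of all genes. Without HC library 3, 5 were nominally higher and 0 nominally lower, against 10.5% and 9.99% of all genes. In both fits 0 passed the test.

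Most transcripts best known from neurons had lower values in Immo+FC blood, at low levels. Of 20 tested members 0 were nominally higher and 16 nominally lower, against 8.53% of all genes, with a median log2 fold change of -2.12. No member passed the test. The summed list was 95.5, 54.5, 137 and 141 FPKM in HC libraries 1 to 4 and 49.7, 56.1, 43.4, 61.3 and 32.9 FPKM in Immo+FC libraries 1 to 5. HC library 2 lay within the Immo+FC range and the other 3 HC pools above it. In FC, at 30.9 to 60.9 FPKM, 17 of 20 were nominally lower than in HC, against 6.42% of all genes. Between Immo+FC and FC 0 differed nominally. Without HC library 3, 15 were nominally lower (median -1.94), and with Immo+FC libraries 1 and 2 left out as well 11 of 19, where 9.99% and 6% of all genes were. Of the 20 members 6 had a mean under the minimum in Immo+FC and were tested only through HC, so these counts are a description.

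Stmn2, a tubulin-binding protein of growing axons, was at 2.24, 1.704, 4.49 and 5.24 FPKM in HC libraries 1 to 4 and 0.3395, 0.394, 0.402, 1.27 and 0 FPKM in Immo+FC libraries 1 to 5. The groups did not overlap, and the difference (log2 fold change -2.89 ± 0.63, adjusted p = 0.0651) missed the threshold. The Immo+FC mean of Stmn2 was under the minimum of 0.5 FPKM, so it was tested only through HC. Eno2, the neuronal enolase, was at 4.34, 1.85, 6.12 and 4.33 FPKM in HC libraries 1 to 4 and 0.486, 0.413, 0.562, 1.903 and 0 FPKM in Immo+FC libraries 1 to 5 (log2 fold change -2.90 ± 0.67, adjusted p = 0.0752), with Immo+FC library 4 overlapping HC library 2. Without Immo+FC library 4, the highest Immo+FC pool of both genes, Stmn2 and Eno2 passed (adjusted p = 0.0492 and 0.0492). Snap25, of the synaptic release machinery, was at 11.7, 3.598, 14.5 and 16.5 FPKM in HC libraries 1 to 4 and 2.06, 1.92, 2.57, 4.37 and 0.0747 FPKM in Immo+FC libraries 1 to 5 (log2 fold change -2.71 ± 0.91, adjusted p = 0.159). Immo+FC library 5 was far below its group in this gene. The calcium sensor Syt1 and the dendritic Map2 had log2 fold changes of -2.41 and -2.15 (adjusted p = 0.112 and 0.0779), and C1ql3, a secreted synaptic C1q-like protein, -3.15 (adjusted p = 0.062).

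Of 11 tested glia genes 5 were nominally lower and 0 nominally higher, against 8.53% and 7.08% of all genes. The median was -0.67, and 4 of the 11 were tested only through HC. Aldoc, the brain aldolase, was at 6.25, 3.804, 7.14 and 9.74 FPKM in HC libraries 1 to 4 and 2.84, 2.13, 2.74, 3.48 and 2.201 FPKM in Immo+FC libraries 1 to 5 (log2 fold change -1.25 ± 0.27, adjusted p = 0.062) and passed without HC library 3 (adjusted p = 0.0469) and without HC library 2 (0.0347). The glutamate transporters Slc1a2 and Slc1a3 of astrocytes were at 0.795 to 2.89 and 0.448 to 1.997 FPKM in HC and 0.0132 to 0.6901 and 0.0357 to 0.392 FPKM in Immo+FC, without overlap in either. Slc1a3, with every Immo+FC pool under the minimum, was tested only through HC. Genes whose HC amygdala mean was at least 5 times their HC blood mean made up 10.4% of all genes tested, 6.62% of those nominally higher and 35.8% of those nominally lower. Their share was 40.2% among the 341 genes lower without overlap, which were 2.91% of those tested, and 24.8% among the nominally lower genes without HC library 3. With a score of the neuron and glia lists as a covariate 1 gene passed between Immo+FC and HC, lower. Most members of that score were themselves lower in Immo+FC, so it carries part of the group difference. The count with this covariate therefore does not show what the calls rest on. The source of the neuron and glia transcripts was not tested.

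Other tissue lists were mostly under the minimum in blood. Skeletal muscle genes had 13 of 26 members tested and 1 nominally lower, thyroid and skin genes 4 of 13 tested and 1 nominally lower, and connective tissue and endothelial genes 6 of 16 tested and 1 nominally higher. The shares over all genes were 7.08% nominally higher and 8.53% nominally lower. Of 23 entries of clustered protocadherins 1 was tested, which merges genes of the alpha and gamma clusters, and it was nominally lower and did not pass (log2 fold change -1.02). The Ugt1a genes form 1 merged entry, which did not pass (log2 fold change 0.64).

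Genes that glucocorticoids induce gave a median of 0.13 over 27 tested, with 0 past the test. Of these 5 were nominally higher and 1 nominally lower, against 7.08% and 8.53% of all genes. Without HC library 3, 8 were nominally higher and 0 nominally lower, against 10.5% and 9.99% of all genes. Then 3 passed, all higher: Fkbp5, Cebpd and Il1r2. Cebpd and Il1r2 are also on the neutrophil surface list. Fkbp5, the cochaperone that restrains the glucocorticoid receptor, was at 4.77, 4.33, 7.45 and 6.26 FPKM in HC libraries 1 to 4 and 15.2, 18.1, 8.25, 8.54 and 8.19 FPKM in Immo+FC libraries 1 to 5, and the FC pools were at 6.46 to 7.51 FPKM. The Immo+FC pools were all above the HC pools, with libraries 1 and 2 the highest, and the difference (log2 fold change 0.96 ± 0.23, adjusted p = 0.0785) missed the threshold with all libraries. Leaving out HC library 3 gave 1.10 ± 0.24 (adjusted p = 0.0344). Cebpd, a C/EBP factor induced in acute responses, was at 11.1, 14.5, 48.7 and 17.5 FPKM in HC and 61.1, 72.99, 35.2, 40.3 and 24.7 in Immo+FC (log2 fold change 1.17 ± 0.43, adjusted p = 0.196) and also passed without HC library 3 (adjusted p = 0.037). Tsc22d3, the leucine zipper GILZ, was at 179 to 334 and 169 to 261 FPKM (adjusted p = 0.592). Ddit4 and the repressor Bcl6 had log2 fold changes of 0.35 and 0.48 (adjusted p = 0.126 and 0.14).

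**Figure D4:**
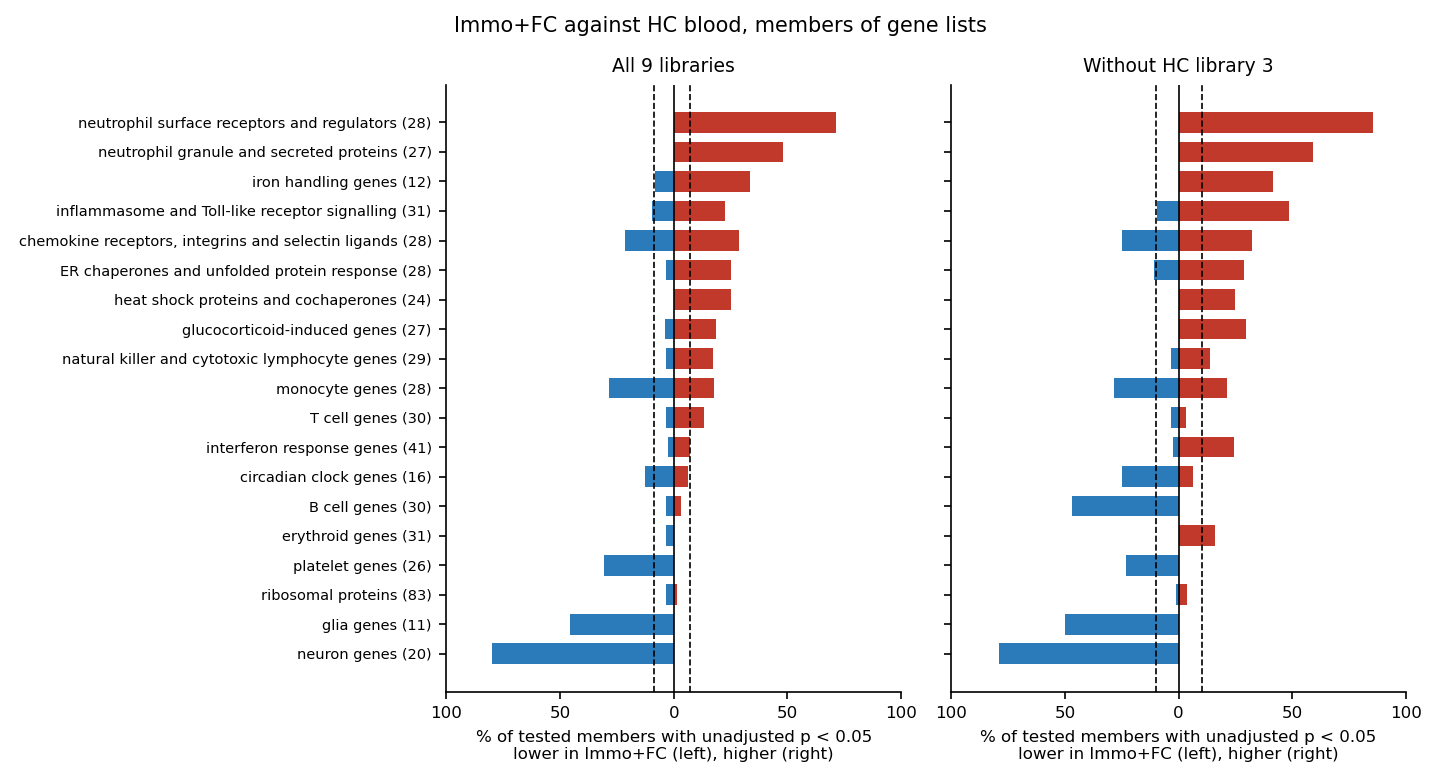
Percent of the tested members that were, for each gene list plotted, lower (left) or higher (right) in Immo+FC than in HC blood at an unadjusted p under 0.05 (limma), with all 9 libraries and without HC library 3; dashed lines mark the shares over all genes tested (8.53% lower, 7.08% higher with all libraries). Among these lists the neutrophil surface list, 20 of 28 nominally higher, and the neuron list, 16 of 20 nominally lower, reach furthest from these lines.

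The clock list, whose genes follow the time of day and glucocorticoid rhythm, had 1 of 16 nominally higher and 2 nominally lower. Over all genes the shares were 7.08% and 8.53%. Without HC library 3, 4 were nominally lower, against 9.99% of all genes, and 1 of the 4, Tef, passed. Tef, an output factor of the clock, was at 7.95, 7.76, 7.92 and 9.46 FPKM in HC libraries 1 to 4 and 4.09, 3.89, 5.56, 6.02 and 5.396 FPKM in Immo+FC libraries 1 to 5. No Immo+FC pool overlapped with HC. Its difference (log2 fold change -0.73 ± 0.14, adjusted p = 0.0548) missed the threshold and passed without HC library 3 (-0.75 ± 0.15, adjusted p = 0.0295) and without Immo+FC library 4 (adjusted p = 0.046). The repressor Cry2 was at 2.95 to 3.81 and 1.99 to 2.504 FPKM, and Nfil3, which opposes Tef at its sites, at 4.31 to 10.7 and 6.34 to 24.8 FPKM (adjusted p = 0.169 and 0.255).

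Immediate early genes were near the shares over all genes (7.08% and 8.53%), with 3 of 26 nominally higher and 2 nominally lower and a median of 0.035. Ier3 was at 5.89, 5.55, 13.4 and 3.22 FPKM in HC libraries 1 to 4 and 18.6, 20.9, 9.14, 11.9 and 13.97 FPKM in Immo+FC libraries 1 to 5, with HC library 3 within the Immo+FC range, and passed without it (1.58 ± 0.27, adjusted p = 0.0179). Fos was at 85.1, 137, 47.02 and 36.6 FPKM in HC and 24.5, 46.5, 11.4, 43.8 and 157 FPKM in Immo+FC, a spread within each group larger than the distance between them. The lymphocyte activation marker Cd69 was at 37.5 to 67.02 and 17.2 to 49.3 FPKM, and Fosl2 and Egr3 had adjusted p-values of 0.142 and 0.242.

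No protein folding gene passed with all libraries. Of 28 chaperones of the endoplasmic reticulum and unfolded protein response genes 7 were nominally higher and 1 nominally lower, against 7.08% and 8.53% of all genes, with Sdf2l1 and Creld2 among the higher. When HC library 3 was omitted, 8 were nominally higher and 3 nominally lower, against 10.5% and 9.99% of all genes. Sdf2l1 and Creld2 then passed higher, and Syvn1, a ubiquitin ligase named after its values were seen, passed lower. Manf was at 15.05 to 22.2 and 20.9 to 27.5 FPKM, the stress factor Ddit3 at 16.2 to 27.7 and 29.4 to 45.3 FPKM without overlap (adjusted p = 0.18), and the lower Herpud1 at 50.9 to 64.4 and 41.9 to 53.2 FPKM. Of 24 heat shock proteins and cochaperones 6 were nominally higher and 0 nominally lower, with 0 past the test, and the counts were the same without HC library 3. Hspa8, Stip1 and the mitochondrial Hspe1 had log2 fold changes of 0.47, 0.38 and 0.31.

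Nominal differences of homing receptors also went both ways, with 8 of 28 nominally higher and 6 nominally lower. Over all genes 7.08% and 8.53% were. The counts without HC library 3 were 9 and 7, against 10.5% and 9.99% of all genes. Then 4 passed, all higher: Ccr1, Cxcr2, Selplg and Cxcr1, the last named after its values were seen. Cxcr2 is also on the neutrophil surface list. Ccr1, a chemokine receptor of neutrophils and monocytes, was at 11.7, 15.2, 46.4 and 12.2 FPKM in HC libraries 1 to 4 and 119.6, 123, 40.4, 67.9 and 33.03 FPKM in Immo+FC libraries 1 to 5 (log2 fold change 1.90 ± 0.47, adjusted p = 0.0807), and without HC library 3 the difference was 2.36 ± 0.42 (adjusted p = 0.0179). The selectin ligand Selplg was at 103 to 201 and 182 to 302 FPKM and passed without HC library 3 (adjusted p = 0.0276). Cxcr6 was at 4.49 to 6.10 and 7.098 to 11.5 FPKM without overlap (adjusted p = 0.0942) and the integrin chain Itgb1 at 76.5 to 96.3 and 52.6 to 81.9 FPKM (log2 fold change -0.47).

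Interferon response genes gave 3 of 41 nominally higher and 1 nominally lower, against 7.08% and 8.53% of all genes. Without HC library 3, 10 were nominally higher, against 10.5% of all genes, and 1 of them, Oasl1, passed. Oasl1 was at 4.54 to 7.95 and 7.38 to 10.7 FPKM (log2 fold change 0.55 ± 0.15, adjusted p = 0.107, and 0.70 ± 0.14, adjusted p = 0.0276 without HC library 3). Oas2, an antiviral nucleotide synthase, was at 2.79 to 6.55 and 5.62 to 14.7 FPKM and the GTPase Gbp3 at 11.7 to 19.6 and 7.81 to 13.5 FPKM, with adjusted p-values of 0.142 and 0.192.

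Few housekeeping genes differed nominally. Of 83 ribosomal protein genes 1 was nominally higher and 3 nominally lower, against 7.08% and 8.53% of all genes. In sign, 77 of the 83 were lower and 6 higher, with a median of -0.19 and, without HC library 3, -0.069. Rpl3 was at 628 to 699.8 and 444 to 607 FPKM (adjusted p = 0.272). Of 76 genes on the oxidative phosphorylation list 2 were nominally higher and 1 nominally lower, with a median of -0.10. Without HC library 3 the median turned to 0.077, with 7 nominally higher and 3 nominally lower, against 10.5% and 9.99% of all genes. Among the genes on this list Atp5sl, named after its values were seen, then passed, lower. The complex I subunit Ndufs1 was at 17.8 to 25.7 and 13.5 to 15.7 FPKM. Of 37 proteasome subunits 1 was nominally higher and 1 nominally lower, Psmd11 being at 20.02 to 25.1 and 26.2 to 32.2 FPKM, and of 30 cell division genes 1 was nominally higher and 0 nominally lower.

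A last list holds 23 blood genes that the study itself chose on these samples, so its counts are no independent evidence of their direction. None passed with all libraries, while 9 were nominally higher and 5 nominally lower, against 7.08% and 8.53% of all genes. Without HC library 3, 5 passed higher and 2 lower, against 1.77% and 0.84% of all genes. Besides members described before, the motor protein Myo5a was at 3.605, 3.95, 4.17 and 4.39 FPKM in HC libraries 1 to 4 and 2.43, 3.24, 2.89, 3.19 and 2.46 FPKM in Immo+FC libraries 1 to 5. The groups did not overlap (log2 fold change -0.50 ± 0.12, adjusted p = 0.0781). The repressor Zhx2 was at 3.38 to 6.67 and 6.28 to 9.49 FPKM, the phosphodiesterase Pde7b at 0.9701 to 1.85 and 1.63 to 4.598 FPKM, and Nxpe4 at 6.12 to 19.5 and 3.99 to 8.01 FPKM, with adjusted p-values of 0.0875, 0.178 and 0.111.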

How the data were processed

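Pools of trunk blood from 2 mice each were globin-depleted, and poly-A libraries were sequenced. The deposited table gives FPKM per gene, which the authors made with STAR 2.3 alignment to mm10, Cufflinks 2.1.1 transcript models and Cuffdiff 2.1.1, with each tissue processed separately. Library totals, as a count, and the percent of reads mapped came from the authors' deposited mapping summary. Their total sequences per library, 9081977 to 25892322 in the 9 libraries, set the precision, and the reads behind a gene's FPKM are unknown. No column of libraries was left unmapped. Joined symbols were found in 272 entries, which name several genes and were kept as 1 entry each.

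FPKM was then put on the log2(FPKM + 0.1) scale and tested with limma (version 3.58.1; R version 4.3.3). The moderated variances followed a trend on the mean, the 14 blood libraries (HC, FC, Immo+FC) were in 1 fit without covariates, and Benjamini-Hochberg adjustment ran over all genes whose mean over the 9 libraries reached 0.5 FPKM. The procedure was run on simulated data with independent errors around each gene's mean and no shifts shared by whole libraries. That run therefore does not cover libraries that stand apart, such as HC library 3. Mapping measures were compared by exact two-sided permutation over 126 splits, for which the smallest possible p was about 0.00794. Named genes were the 10 with the largest differences in each direction among those past the threshold without overlap and with at least 1 FPKM in the higher group, filled up by the smallest p-values, up to 5 members of smallest p of each list with the first 3 markers of cell type lists, the blood genes the study names, and members at a list's extremes. The 32 lists, the members and the comparison were chosen with earlier results of these data known. Of 220 named genes 218 were given a position in GRCm38 (GENCODE vM21), and upstream sequences came from RefSeq for GRCm38.p6. Alternatives were other pseudocounts, minimum levels and scalings, a fit of the 9 libraries, array weights, a replicate block, list scores as covariates and each library left out. The omission of Immo+FC libraries 1 and 2, with or without HC library 3, and the fit of the block's libraries without the block were chosen after seeing the data. Leaving out each library was planned, but HC library 3 was singled out for the text by its values. Some genes that the rule named are not reported here. Figures were drawn with matplotlib 3.10.9.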

Additional observations from a re-analysis of the deposited data

Results flagged for a closer look

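Of 304 sets of 4 or 5 values within a group, 13 had 1 library far from the others by Dixon's criterion (the gap to the nearest library over the range of the group, above its 95% critical value), and chance alone gives about 1 in 20. Of these, 12 were in HC, 8 of them HC library 3, and 1 was in Immo+FC. HC library 3 was the highest of its group for Lrg1 (78.6 FPKM), Mmp9 (116 FPKM), Cxcr2 (78.6 FPKM), Nlrp3 (12.1 FPKM), Slc40a1 (30.3 FPKM), Ndufs1 (25.7 FPKM) and the summed neutrophil granule list (42127 FPKM), and the lowest for H2-Ob (133 FPKM). HC library 4 was the lowest for Prf1 (10.9 FPKM) and for total sequences (9081977), and the highest for Tef (9.46 FPKM). HC library 1 was the lowest for Ddit3 (16.2 FPKM). Immo+FC library 5 was the lowest for Snap25 (0.0747 FPKM).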

How the results depend on the processing

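The number of genes that passed between Immo+FC and HC (8, with 3 higher and 5 lower) moved with most choices. It was 3 (1 higher, 2 lower) with a pseudocount of 0.01 and 175 (47, 128) with 1, 190 (38, 152) with no minimum level, 98 (44, 54) after quantile normalization, 2 (0, 2) in a fit of the 9 libraries and 369 (241, 128) with array weights. With the neuron and glia score as a covariate it was 1 (0, 1), and with the neutrophil granule score 142 (27, 115). Both scores carry part of the group difference, so the counts with them are a description. The number that passed was 6 (2, 4) with a minimum of 1 FPKM and with median-ratio scaling, each time among the 8 reported. With 1 library left out it ranged from 3 to 305 (0 to 207 higher, 2 to 98 lower), the highest without HC library 3. Without Immo+FC libraries 1 and 2 it was 2 (0, 2), and without HC library 3 as well 52 (46, 6), where between FC and HC 21 passed. Between FC and HC (4 genes) it was 92 with a pseudocount of 1, 202 with no minimum, 11 with array weights, 1 with the neuron and glia score, 144 with the granule score and 1 to 69 with 1 library left out. Between Immo+FC and FC it was 0 under every setting that gave this comparison. The share of higher genes among those that passed between Immo+FC and HC was 37.5% in the report, 26.9% with a pseudocount of 1, 20% with no minimum, 44.9% after quantile normalization, 65.3% with array weights and 67.9% without HC library 3.

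The difference in total sequences ranged from 3854800 to 7528070 with 1 library left out, and lost its call without HC library 4, the shallowest. That in the percent of reads mapped to a single place ranged from -7.01 to -3.19, and gained a call without HC library 3.

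Replicate numbers are names only, since nothing says that they mark a shared day or litter. Same-numbered Immo+FC and HC libraries correlated in their deviations at -0.056, -0.24, -0.17 and -0.041. The fit with the number as a replicate block leaves out library 5 of Immo+FC and of FC, which have no HC partner. With the block, 10 genes passed between Immo+FC and HC (3 higher, 7 lower), 4 of them among the 8 reported, and 98 passed between FC and HC. In the same libraries without the block, a fit chosen after seeing the data, it was 15 (9 higher, 6 lower), 5 of them among the 8, and 82.

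Of 2778 values of the 121 named genes under 23 other settings, 2757 kept their direction. The other 21 belong to 9 genes, none of which passed in the report. Ltf turned to 0.061 with array weights, 1.25 with the neuron and glia score, 0.42 without HC library 3, 0.21 without Immo+FC library 1, and 0.57 with HC library 3 and Immo+FC libraries 1 and 2 all left out. Cd79a turned to -0.089 with array weights, -0.026 with the neuron and glia score, -0.19 without HC library 3, -0.029 without Immo+FC library 3 and -0.059 without those 3 libraries together. With array weights Hbb-bt turned to 0.12 and Tsc22d3 to 0.023, and with the neuron and glia score Tsc22d3 turned to 0.0197, Pf4 to 0.079, Snap25 to 0.77 and Syt1 to 0.27. Camp turned to -1.49 with the granule score, -0.13 without HC library 2 and -0.026 if Immo+FC library 2 was left out, and Ly6c2 to -0.27 with the granule score and -0.12 without Immo+FC libraries 1 and 2. Snap25 and Syt1 are themselves members of the neuron and glia score, and Camp of the granule score. The turns of these genes with those scores follow in part from that membership. With 1 library left out the range was -0.59 to 0.42 for Ltf, -0.13 to 0.85 for Camp and -0.19 to 0.18 for Cd79a. The cause was not tested. The table holds no reads per gene, so what depth limits per gene is unknown.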

Other observations

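Gh, growth hormone, was the only one of 8 listed pituitary hormone genes above the minimum in blood. It was at 3.75, 2.88, 1.099 and 2.92 FPKM in HC libraries 1 to 4 and 0.524, 0.483, 0.984, 0.993 and 1.44 FPKM in Immo+FC libraries 1 to 5, and FC libraries had 4.87, 2.35, 1.02, 3.81 and 3.81 FPKM. HC library 3 was the only HC pool within the Immo+FC range (log2 fold change -1.46 ± 0.45, adjusted p = 0.123, and -1.82 ± 0.43, adjusted p = 0.0412 without that library). Acta2, smooth muscle actin, was at 1.18, 0.927, 2.09 and 0.854 FPKM in HC libraries 1 to 4 and 8.35, 8.404, 2.71, 3.03 and 2.05 FPKM in Immo+FC libraries 1 to 5 (log2 fold change 1.72 ± 0.44, adjusted p = 0.0863), with HC library 3 the highest HC pool (1.97 ± 0.46, adjusted p = 0.0401 without it). Erdr1, which was also among the genes the study names, was at 64.1, 85.7, 26.9 and 79.9 FPKM in HC libraries 1 to 4 and 31.9, 32.5, 35.4, 32.1 and 37.4 FPKM in Immo+FC libraries 1 to 5, and at 51.3 to 99.9 FPKM in FC. The 5 Immo+FC pools lay close together, below HC libraries 1, 2 and 4 and every FC pool but above HC library 3 (log2 fold change -0.79 ± 0.28, adjusted p = 0.173, and -1.17 ± 0.17, adjusted p = 0.0109 without HC library 3). Without HC library 3 and Immo+FC libraries 1 and 2 Erdr1 passed as well (log2 fold change -1.12, adjusted p = 0.0398).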
